A study of Mus musculus with 6 samples.

Results

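Integrins are the receptors with which cells hold on to the extracellular matrix and to each other, and the results below follow the RNA of 10 integrin subunits in the epicardium and subepicardium of mouse hearts. The members are the alpha subunit genes Itga4, Itga5, Itga6, Itga7, Itga8, Itga9 and Itgav and the beta subunit genes Itgb1, Itgb3 and Itgb5. They were chosen by gene symbol, and all 10 were found among the 14549 genes of the table. Polyadenylated RNA was sequenced on embryonic day E16.5 from 3 dKO pools and 3 control pools, each made of 2 dissected hearts of 1 genotype. The dKO embryos were homozygous for floxed alleles (Meis1fl/fl and Meis2fl/fl) of a pair of genes for homeodomain transcription factors, and carried WT1-Cre. The control embryos are labelled wild-type, and the labels do not say whether they had floxed alleles or WT1-Cre. WT1-Cre acts in cells with a history of Wt1 expression, which in the heart marks the epicardium and cells derived from it, so other cells of the dissected layer keep both genes. The pools came from at least 3 litters, and pools keep the numbers of their titles (dKO 1, 2 and 3, control 1, 2 and 4), which are not stated to pair them.

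Each integrin is a pair of 1 alpha and 1 beta subunit, and the alpha subunit sets most of the ligand choice. The Itgb1 product is the common partner of many alpha subunits, while the Itgb3 and Itgb5 products pair with the Itgav product. The pairs fall into ligand classes: receptors of the RGD peptide motif of fibronectin, vitronectin and nephronectin (Itga5, Itga8, Itgav), laminin receptors (Itga6, Itga7), and receptors of VCAM1, of an alternatively spliced part of fibronectin (Itga4) or of tenascin-C (Itga9). In the mouse heart the Itga4 product is known to hold the epicardium on the myocardium, whose cells display VCAM1.

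Values are normalised read counts, that is, reads scaled to a common library size, and they are not divided by gene length. A change is given as the difference of log2(value + 1), dKO minus control, with its standard error (SE). Recovered read totals ran from 13146322 to 20635676 per pool. Meis2 had 44.5, 34.8 and 44.5 in dKO pools, against 86.1, 85.6 and 63.3 in control pools, while Meis1 had 58.5, 74.1 and 65.0 in dKO pools, against 106, 63.6 and 63.4 in control pools. Only the fall of Meis2 passed the test (limma adjusted p = 0.00352; Meis1, limma adjusted p = 0.521), and neither value is limited to the deleted exons; 18.3% of the exonic bases of Meis1 overlap another gene. All 10 epicardial and mesothelial markers had more than 0 reads in every pool, but cardiomyocyte markers were abundant too and moved with genotype. All 12 cardiomyocyte markers rose, with a summed level of 22826 to 26558 in dKO pools, against 4342 to 9779 in control pools, and all 10 epicardial markers fell, with a summed level of 325 to 397 in dKO pools, against 1926 to 2711 in control pools. In such bulk samples fewer cells of a type and less RNA per cell cannot be told apart. Of other cell types, 7 of 8 fibroblast markers fell, 1 of 8 endothelial markers fell, and 0 of 5 erythroid and 0 of 2 measured Schwann and neuronal markers were called by limma. Limma called 12.2% of all genes lower and 9.81% higher, and 1 of 8 lies near the lower share.

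The 250 bases before the start site were read for the fibronectin receptor pair that moved in opposite directions, Itga4 and Itga5, and for Itgb5, the member whose window holds a match to the Meis core motif. They are RefSeq promoters on GRCm38.p6, printed 5′ to 3′ on the strand of the gene, with matches to the motif TGACAG (or its reverse complement CTGTCA) in capitals.
Itga4 (chr2:79255176-79255425, plus strand): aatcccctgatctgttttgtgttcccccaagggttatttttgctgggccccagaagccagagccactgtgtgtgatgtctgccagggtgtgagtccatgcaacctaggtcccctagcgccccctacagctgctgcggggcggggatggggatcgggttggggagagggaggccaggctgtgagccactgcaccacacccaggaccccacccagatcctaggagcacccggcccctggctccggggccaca
Itga5 (chr15:103366792-103367041, minus strand): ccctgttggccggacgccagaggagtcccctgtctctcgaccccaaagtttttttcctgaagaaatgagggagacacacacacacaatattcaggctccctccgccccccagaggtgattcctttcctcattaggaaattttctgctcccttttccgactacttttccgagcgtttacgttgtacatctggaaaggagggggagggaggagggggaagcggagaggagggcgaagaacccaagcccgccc
Itgb5 (chr16:33829415-33829664, plus strand): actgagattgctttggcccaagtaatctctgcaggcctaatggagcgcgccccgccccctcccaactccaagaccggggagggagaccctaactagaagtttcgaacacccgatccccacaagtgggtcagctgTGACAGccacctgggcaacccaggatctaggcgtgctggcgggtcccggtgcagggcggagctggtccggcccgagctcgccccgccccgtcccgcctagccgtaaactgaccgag
RefSeq windows were found for 7 of the 10 members, and 1 of these 7, that of Itgb5, held the motif, 116 bases before the start. Of all 32851 mouse promoter windows of this length, 15.9% held it. The Itga9 window lies 105002 bases inside the gene as GENCODE draws it, at a start site other than the first. Windows for Itga6, Itga7 and Itgb3 were not analysed here. A match or its lack describes only these letters.

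In the dKO pools 2 of the 10 integrin genes rose, Itga9 and Itga5, and 2 fell, Itga7 and Itga4; the other 6 did not pass. The 4 called members are all alpha subunits, whereas 0 of 3 beta subunits were called. Of all genes tested, 22.0% were called (limma, Benjamini-Hochberg adjusted p under 0.05), 12.2% lower and 9.81% higher in dKO pools. The median log2 change was -0.04 over the 10 members and 0.00164 over all genes. By ligand class, the VCAM1 and tenascin class held 1 member that rose and 1 that fell, the laminin class 1 that fell and 1 that did not pass, and the RGD class 1 alpha subunit that rose and 2 that did not pass.

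**Figure D1:**
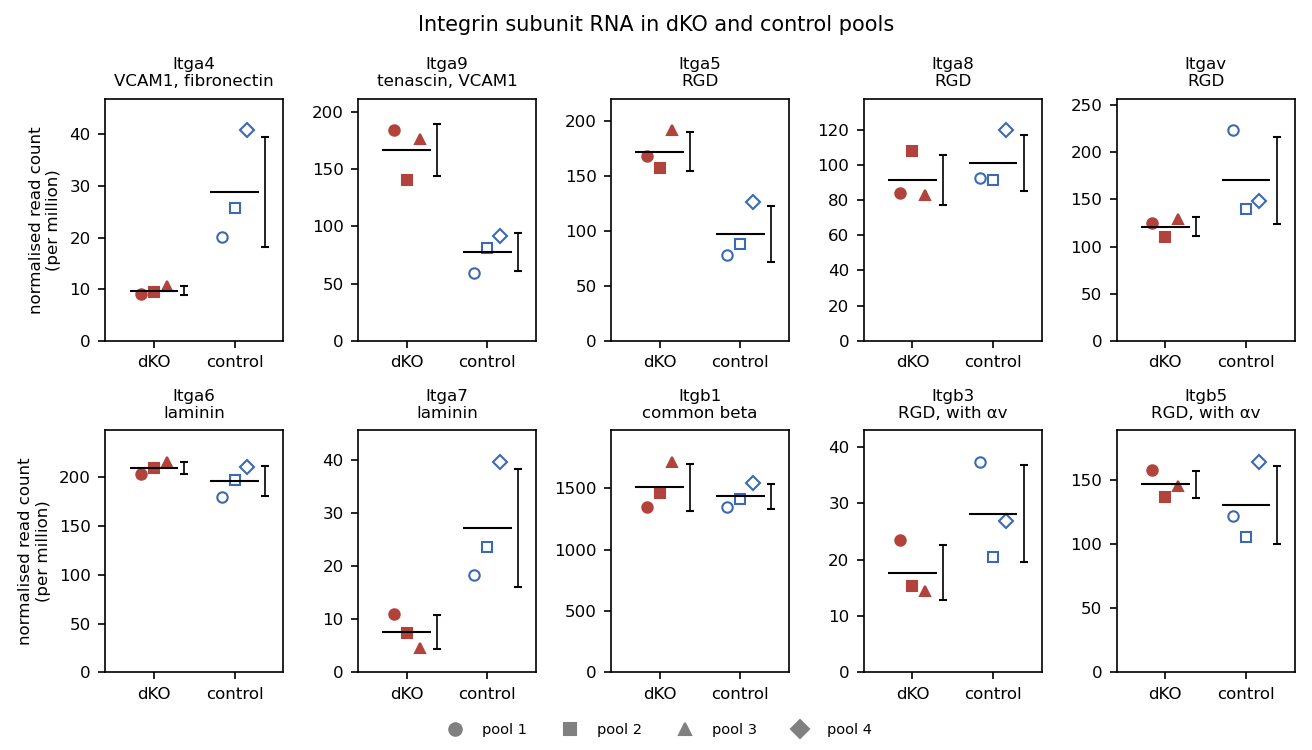
Normalised read count (linear axes that start at 0) of the 10 integrin members in 3 dKO pools (filled) and 3 control pools (open). Marker shapes give the pool number, horizontal lines the mean and bars the SD; Itga4 and Itga7 lie lower, and Itga9 and Itga5 higher, in every dKO pool than in any control pool.

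Itga4 and Itga9, which encode related alpha subunits that both pair with the Itgb1 product and both bind VCAM1, changed in opposite directions. Itga4 (ENSMUSG00000027009, GRCm38 chromosome 2, 79255426 to 79333123) had 9.04, 9.43 and 10.7 in dKO pools, against 20.1, 25.7 and 40.7 in control pools. The 3 dKO pools lay close together and below every control pool, while control 4 was about as far above control 2 as control 2 was above the dKO pools. Means were 9.72 ± 0.862 in dKO and 28.8 ± 10.7 in control pools (SD, n = 3 each), 33.7% of the control mean, with a log2 change of -1.42 (SE 0.25, limma adjusted p = 0.00294). These values rest on 127 to 219 reads per dKO pool and 325 to 641 per control pool, and 8.04% of the exonic bases of Itga4 are shared with Cerkl.

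Itga9 (ENSMUSG00000039115, chromosome 9, 118606690 to 118901003), best known for tenascin-C binding and for lymphatic valves, had 184, 141 and 176 in dKO pools, against 59.7, 81.0 and 92.0 in control pools. The lowest dKO pool, dKO 2, was still well above the highest control pool, control 4. Itga9 averaged 167 ± 23.1 in dKO and 77.6 ± 16.4 in control pools (SD, n = 3 each), and its log2 change of 1.11 (SE 0.17, limma adjusted p = 0.00166) exceeds that of 96.2% of all genes. Divided by exonic length, the ratio of Itga9 to Itga4 was 36.9, 27.1 and 29.9 in dKO pools, against 5.40, 5.73 and 4.11 in control pools. The ratio was thus 6.17 times as high in dKO pools, with no overlap between the groups (exact permutation p = 0.1, the smallest that 3 against 3 pools allow, and p = 0.1 after adjustment over 6 ratios). Itga9 was higher and Itga4 lower in every dKO pool, so this ratio was bound to separate the groups. Its p-value therefore adds nothing to the changes of the single genes.

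Markers of cell types known for these genes did not all move with them. Of 7 lymphatic endothelial markers 6 fell, with a summed level of 148 to 198 in dKO pools, against 590 to 859 in control pools; Ccl21a had 0 reads in dKO 2. Mmrn1, a lymphatic matrix gene, had a log2 change of -4.60, and Prox1, the lymphatic master regulator, did not pass at 0.35. Itga9 rose in the pools in which these markers were lower. Among leukocytes, which also use the Itga4 product, 3 of 8 macrophage markers fell (summed level 169 to 247 in dKO pools, against 360 to 506 in control pools) and 3 of 4 measured mast cell markers fell (52.5 to 62.5 in dKO pools, against 242 to 315 in control pools). Over all genes 12.2% were called lower. The part of epicardial, macrophage and mast cell RNA in the fall of Itga4 was not tested.

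Among the RGD class, Itga5 rose while Itga8 and Itgav did not pass. Itga5 (ENSMUSG00000000555, chromosome 15, 103344286 to 103366763), the classical fibronectin receptor subunit, had 168, 157 and 191 in dKO pools, against 77.8, 88.3 and 126 in control pools. All dKO pools were above all control pools, with control 4 nearest to them. Its means were 172 ± 17.5 in dKO and 97.4 ± 25.4 in control pools (SD, n = 3 each), a log2 change of 0.84 (SE 0.17, limma adjusted p = 0.00713). Per exonic length the ratio of Itga5 to Itga4, both fibronectin receptors, was 52.6, 47.2 and 50.7 in dKO pools, against 11.0, 9.74 and 8.77 in control pools. This ratio varied less among the pools of a group than Itga4 itself did in control pools, and it was 5.11 times as high in dKO pools (exact permutation p = 0.1, the smallest possible). Its separation likewise follows from the rise of Itga5 and the fall of Itga4 in every dKO pool.

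Itgav, whose product binds vitronectin and latent TGF-beta, had 125, 110 and 129 in dKO pools, against 223, 139 and 148 in control pools. The groups did not overlap, yet the difference did not pass (log2 change -0.46, SE 0.17, 95% interval -0.85 to -0.07, limma adjusted p = 0.0890); groups did not overlap for 5 of the 10 members (3 lower, 2 higher) and for 40.4% of all genes (21.1% lower, 19.3% higher). Control 1 stood well above the other pools, and without it the log2 change was -0.25. DESeq2 on the recovered reads did call Itgav, at -0.49 (DESeq2 adjusted p = 0.0488). Itga8, whose product binds nephronectin and marks mesenchyme and vascular smooth muscle, had 83.8, 108 and 82.7 in dKO pools, against 92.5, 91.3 and 120 in control pools. The groups overlapped, with a 95% interval of the log2 change from -0.49 to 0.20 (limma adjusted p = 0.548).

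The Itgav partners did not pass either. Itgb3, also the platelet fibrinogen receptor subunit, had 23.4, 15.3 and 14.4 in dKO pools, against 37.3, 20.4 and 26.8 in control pools. Only dKO 1 reached above the lowest control pool, and the log2 change was -0.63 with a 95% interval from -1.19 to -0.07 (limma adjusted p = 0.101). Itgb3 passed without dKO 1, at -0.84 (limma adjusted p = 0.0441). Over the 18 alternatives its limma, edgeR or DESeq2 adjusted p ran from 0.0312 to 0.968. Control 1 was the highest pool for Itgb3 as for Itgav, whereas control 4 was the highest control pool for the 8 other members. Of 3 measured platelet markers, Itga2b among them, 1 fell, against 12.2% of all genes. That marker was Pf4, with a log2 change of -2.14. The summed level of the 3 platelet markers was 8.25 to 10.04 in dKO pools, against 26.0 to 39.8 in control pools. Most of the control sum was Pf4 alone, with 21.4, 22.2 and 34.4 in control pools. Itga2b (log2 change -0.12, limma adjusted p = 0.845) and Ppbp (-0.90, limma adjusted p = 0.119) did not pass. The part of platelet RNA in the Itgb3 values was not tested. Itgb5, the vitronectin receptor subunit, had 158, 137 and 145 in dKO pools, against 122, 106 and 164 in control pools, with groups that overlapped (log2 change 0.19, limma adjusted p = 0.447).

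The laminin receptors split as well. Itga7 (ENSMUSG00000025348, chromosome 10, 128933818 to 128958282), the laminin receptor subunit of skeletal, cardiac and smooth muscle, had the largest fall of the 10. It had 11.0, 7.43 and 4.60 in dKO pools, against 18.3, 23.6 and 39.7 in control pools. Both groups were spread more than 2-fold between their lowest and highest pool (2.40-fold in dKO, 2.17-fold in control), but did not overlap. Means were 7.69 ± 3.22 in dKO and 27.2 ± 11.2 in control pools (SD, n = 3 each), 28.3% of the control mean, for a log2 change of -1.70 (SE 0.33, limma adjusted p = 0.00532). Only 2.96% of all genes had a lower log2 change, and the values rest on 94 to 177 reads in dKO pools and 296 to 625 in control pools.

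Cardiomyocyte markers and most mural markers moved the other way from Itga7. Besides the 12 cardiomyocyte markers, 6 of 8 mural markers rose, with a summed level of 1687 to 1874 in dKO pools, against 572 to 920 in control pools. Of this sum Acta2 alone held 1015 to 1286 in dKO pools and 255 to 522 in control pools. Over all genes 9.81% were called higher. The mural genes Rgs5 and Cnn1 had log2 changes of 0.99 and 1.81, while Tagln (0.35, limma adjusted p = 0.385) and Myh11 (-0.20, limma adjusted p = 0.864) did not pass. Itga6, the laminin receptor subunit of epithelia and endothelium, had 203, 209 and 215 in dKO pools, against 180, 197 and 211 in control pools. It was the least variable member in dKO pools, and its log2 change was 0.10 with a 95% interval from -0.16 to 0.35 (limma adjusted p = 0.592). Per exonic length, the ratio of Itga6 to Itga7 was 16.49, 25.2 and 41.9 in dKO pools, against 8.79, 7.497 and 4.75 in control pools (exact permutation p = 0.1, the smallest possible).

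Itgb1, whose product can pair with each of the alpha members, was the most abundant member and did not pass. It had 1345, 1464 and 1715 in dKO pools, against 1348, 1411 and 1546 in control pools. The groups overlapped, and the 95% interval of its log2 change ran from -0.31 to 0.44 (0.07, limma adjusted p = 0.814). Its control mean exceeded that of 99.7% of all genes.

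**Figure D2:**
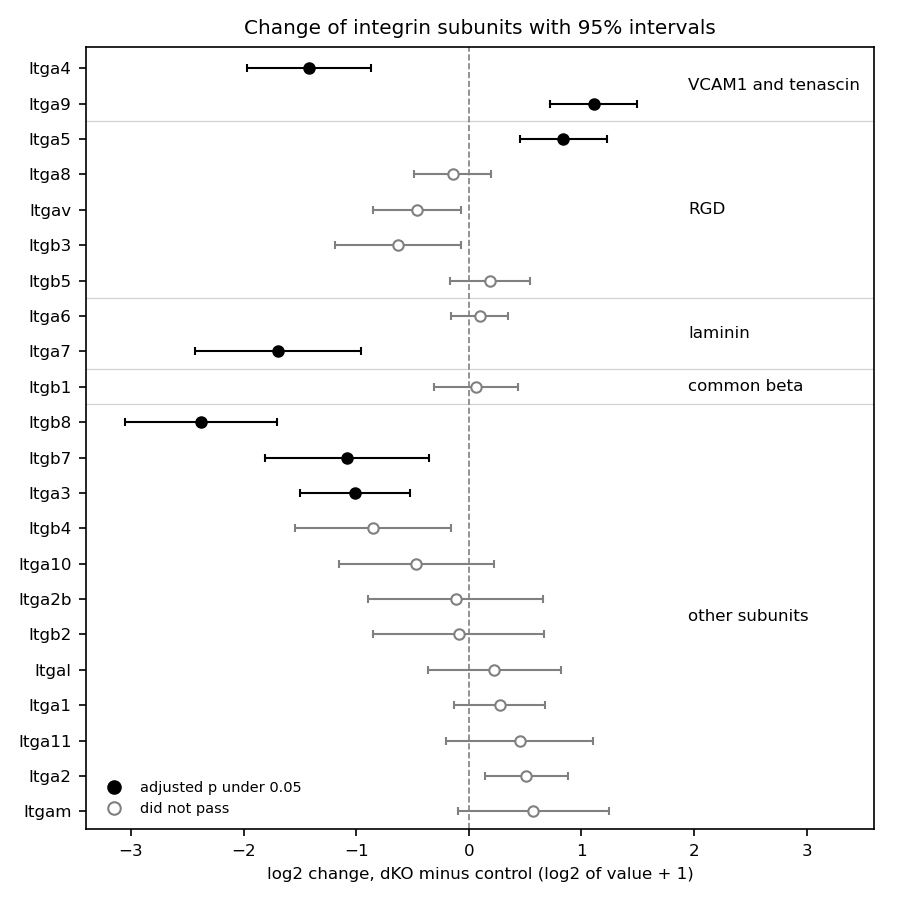
Log2 change (dKO minus control, on log2 of the value plus 1) of the 10 members by ligand class and of the 12 other measured integrin subunits. Bars are 95% intervals of the fit and filled points passed the threshold; Itga9 and Itga5 are the filled points right of 0.

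Levels of different genes were compared per kilobase of exon in the GENCODE annotation. In dKO pools the order of the alpha subunits was Itga5 (34.9 ± 3.54 per kilobase), Itga6 (23.2 ± 0.681), Itga9 (21.7 ± 3.004), Itga8 (12.4 ± 1.91), Itgav (11.3 ± 0.930), Itga7 (0.950 ± 0.398) and Itga4 (0.696 ± 0.0617). In control pools it was Itga6 (21.7 ± 1.72 per kilobase), Itga5 (19.7 ± 5.14), Itgav (15.8 ± 4.28), Itga8 (13.7 ± 2.17), Itga9 (10.1 ± 2.14), Itga7 (3.36 ± 1.38) and Itga4 (2.06 ± 0.763), all as SD with n = 3. In dKO pools Itga6 and Itga9, Itga8 and Itgav, and Itga7 and Itga4 overlapped between neighbours. In control pools the neighbours from Itga6 down to Itga8 overlapped in turn, and so did Itga7 and Itga4. Among the beta subunits the order was Itgb1, Itgb5, Itgb3 in both groups, with no overlap.

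As a share of the summed level of the 7 alpha members, Itga5 held 32.3%, 31.95% and 35.2% in dKO pools, against 19.6%, 22.3% and 25.9% in control pools. Itga9 held 22.7%, 18.3% and 20.8% in dKO pools, against 9.65%, 13.1% and 12.1% in control pools. Itgav took the opposite course, with 11.0%, 10.3% and 10.9% in dKO pools, against 25.8%, 16.1% and 14.0% in control pools. Itga7 held 0.911% ± 0.389 in dKO and 3.80% ± 1.09 in control pools, and Itga4 0.662% ± 0.0426 in dKO and 2.34% ± 0.585 in control pools (SD, n = 3 each). Shares sum to a fixed total, so a rise of some lowers the others: Itga6 had a lower share in every dKO pool (22.1% ± 1.015 in dKO, 25.2% ± 1.81 in control pools) although its level did not pass. For each of the 7 alpha shares per kilobase of exon the groups did not overlap (exact permutation p = 0.1, the smallest possible, and p = 0.143 after adjustment over the 10 members). The share of Itgb1 among the 3 beta members was 89.2% ± 1.78 in dKO and 89.5% ± 1.58 in control pools (exact permutation p = 0.9). With the length of the longest coding transcript, a choice made after seeing the data, Itga6 was the first alpha subunit in both groups. Itga5 then held rank 2 in dKO and rank 3 in control pools. With that length the shares of Itga6 and of Itga8 overlapped between the groups.

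**Figure D3:**
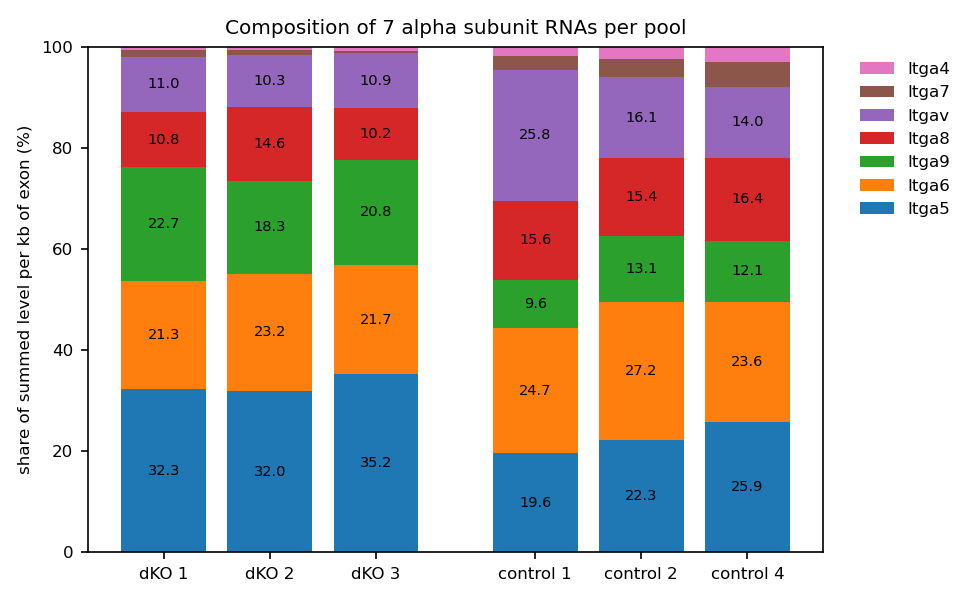
Share (%) of each alpha subunit in the summed level per kilobase of exon of the 7 alpha members, 1 stacked bar per pool, with shares above 5% printed. Itga5 and Itga9 take larger shares in each dKO pool than in any control pool, and Itgav, Itga7 and Itga4 smaller ones.

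The pools of a group agreed less well in controls. The coefficient of variation was larger in control pools for 8 of the 10 members, with a median of 11.3% in dKO and 24.6% in control pools, while over all genes it was larger in control pools for 54.0%. Control 4 was the highest control pool for 8 members and control 1 the lowest for 6. Control 1 also had the lowest cardiomyocyte and the highest epicardial marker sums. With the mean log2 level of the cardiomyocyte markers as a covariate, a term whose values in the dKO pools all exceed those in the control pools, Itga4 alone kept its call (log2 change -2.56, limma adjusted p = 0.0422). Under that covariate Itga7 was at -3.20 (limma adjusted p = 0.0519), Itga5 at 0.07 (limma adjusted p = 0.973) and Itga9 at 0.21 (limma adjusted p = 0.894), and calls over all genes fell to 137 lower and 40 higher.

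Of 16 other integrin subunits 12 were measured. By limma 3 fell and 0 rose, 25% of those measured, which is near the 22.0% called over all genes in either direction. As all 3 calls are falls, the share to set beside them is the 12.2% of all genes called lower. The median log2 change of these 12 subunits was -0.10. By limma 1 subunit, Itga2, was higher at an unadjusted p under 0.05, and DESeq2 called it. The largest fall was that of Itgb8, whose product pairs with that of Itgav and activates latent TGF-beta. It had 6.74, 9.58 and 7.72 in dKO pools, against 79.1, 33.8 and 35.1 in control pools (log2 change -2.38, SE 0.30, limma adjusted p = 0.000534). Every dKO pool was below every control pool, and control 1 was again the highest. Itga3, a laminin receptor subunit of epithelia, averaged 20.8 ± 3.81 in dKO and 43.6 ± 11.6 in control pools (SD, n = 3 each; log2 change -1.01, limma adjusted p = 0.00900). Itgb7, the other partner of the Itga4 product and a leukocyte gene, fell too (-1.08, limma adjusted p = 0.0390) but rests on 0, 6 and 3 reads in dKO pools. The collagen receptor subunits Itga1 (0.27), Itga2 (0.51), Itga10 (-0.46) and Itga11 (0.45) did not pass, nor did Itgb4 (-0.85), the other laminin receptor beta subunit, and the leukocyte and platelet subunits Itgal, Itgam, Itgb2 and Itga2b.

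The ligands of these receptors were read from a list of 26 genes, of which 25 were measured. In dKO pools 8 fell and 3 rose, 44% of those measured, against 22.0% called over all genes (12.2% lower and 9.81% higher). The median log2 change of the ligands was -0.06. Nephronectin, Npnt, the main ligand of the Itga8 product, fell most: 13.3, 15.9 and 16.3 in dKO pools, against 237, 152 and 117 in control pools (log2 change -3.33, SE 0.23, limma adjusted p = 1.21e-05). Its receptor gene Itga8 did not pass, as given above. Tenascin-C, Tnc, a ligand of the Itga9 product, rose like Itga9, with 355, 423 and 431 in dKO pools, against 160, 174 and 176 in control pools (log2 change 1.23, limma adjusted p = 0.000117). Svep1, a matrix protein that also binds the Itga9 product, fell, with 38.7 ± 9.49 in dKO and 136 ± 12.2 in control pools (SD, n = 3 each; log2 change -1.81, limma adjusted p = 9.61e-05), and 13.9% of its exonic bases overlap another gene. Vcam1, the ligand shared by the Itga4 and Itga9 products, did not pass (186 ± 10.7 in dKO, 165 ± 32.4 in control pools; log2 change 0.19, limma adjusted p = 0.408). Fibronectin, Fn1, did not pass (1599 ± 169 in dKO, 1843 ± 473 in control pools; log2 change -0.18, limma adjusted p = 0.591).

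Among the laminin chain genes, Lama3, Lamb3 and Lama5 fell. Lama3 had 3.89, 6.10 and 6.41 in dKO pools, against 49.1, 45.4 and 42.6 in control pools (log2 change -2.87, limma adjusted p = 1.62e-05). Lamb3 averaged 3.64 ± 1.24 in dKO and 20.3 ± 3.33 in control pools (SD, n = 3 each; log2 change -2.22, limma adjusted p = 0.00026). Both encode chains of laminins of epithelial basement membranes. Lama5 fell by 0.52 on the log2 scale, whereas Lama2, Lama4, Lamb1, Lamb2 and Lamc1 did not pass, with log2 changes from 0.22 to 0.35. Lama1 did not pass either (log2 change 1.18, limma adjusted p = 0.0790) and rests on 4 to 36 reads in control pools. Of 10 measured RGD ligands 3 fell, Npnt, Thbs1 and Fbn1, 1 rose and 6 did not pass. The thrombospondin gene Thbs1 was lower (72.0 ± 11.4 in dKO, 212 ± 51.3 in control pools; log2 change -1.53, limma adjusted p = 0.000338). Fbn1, which encodes the microfibril protein fibrillin, had 339, 338 and 298 in dKO pools, against 664, 462 and 758 in control pools (log2 change -0.92, SE 0.18, limma adjusted p = 0.00529), and 20.1% of its exonic bases overlap another gene. The groups did not overlap. Mfge8, a secreted bridge to dying cells, rose by 0.77. In the VCAM1 and tenascin class the growth factor gene Vegfc, whose product is also a ligand of the Itga9 product, fell by 0.56 on the log2 scale (limma adjusted p = 0.0419). Lama5, Fbn1, Mfge8 and Vegfc were named after their values were seen.

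**Figure D4:**
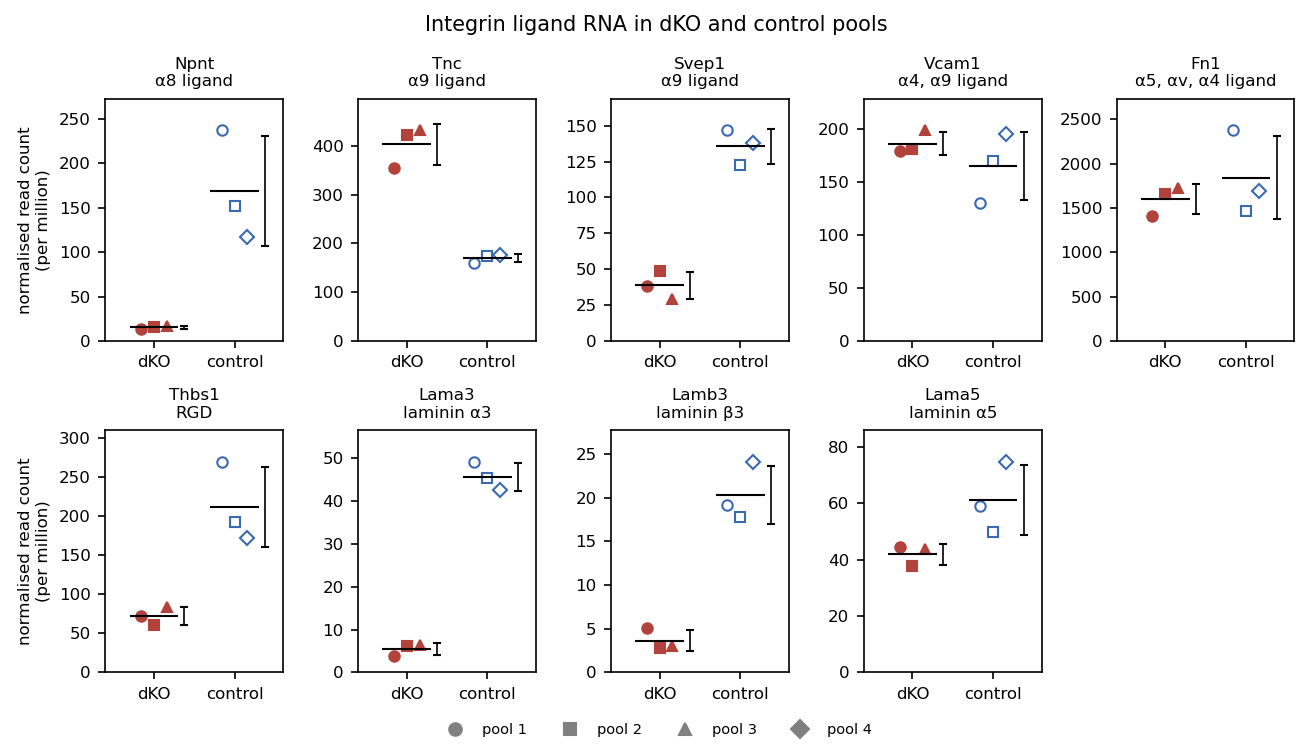
Normalised read count (linear axes that start at 0) of 9 integrin ligand genes in 3 dKO pools (filled) and 3 control pools (open), with the mean as a line and the SD as a bar. Npnt, Svep1, Thbs1, Lama3, Lamb3 and Lama5 are lower and Tnc higher in every dKO pool, while Vcam1 and Fn1 overlap between the groups.

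Genes of the cytoplasmic adhesion complex that joins integrin tails to actin were read from a list of 28, of which 27 were measured. In dKO pools 6 fell and 3 rose, 33.3% of those measured, with a median log2 change of -0.06. Over all genes 22.0% were called, 12.2% lower and 9.81% higher. The count that fell was 3 without control 4, without dKO 2 or without dKO 3. Tns3, which encodes a tensin that binds beta tails, had 101, 109 and 104 in dKO pools, against 259, 275 and 226 in control pools (log2 change -1.26, limma adjusted p = 7.95e-05). Its relative Tns1 went the other way, with 330 ± 37.1 in dKO and 186 ± 36.9 in control pools (SD, n = 3 each, log2 change 0.83, limma adjusted p = 0.00466). Another tensin gene, Tns2, fell like Tns3, with 22.6 ± 3.52 in dKO and 36.9 ± 7.42 in control pools (log2 change -0.67, limma adjusted p = 0.0277). The kinase gene Ptk2b fell (16.2 ± 3.39 in dKO, 51.8 ± 14.2 in control pools; log2 change -1.61, limma adjusted p = 0.000701) and its relative Ptk2, the focal adhesion kinase, did not pass (0.10). Parva, which encodes a parvin that binds the integrin-linked kinase, fell by 0.62 on the log2 scale (limma adjusted p = 0.0041).

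Genes of talins, which are integrin activators, also differed between relatives. Tln2, a talin gene of striated muscle, had 142, 172 and 166 in dKO pools, against 57.6, 67.2 and 95.8 in control pools (log2 change 1.14, limma adjusted p = 0.00175), while Tln1 did not pass (0.08). Itgb1bp2, which encodes melusin, a muscle partner of the Itgb1 tail, had 97.4, 58.3 and 58.8 in dKO pools, against 12.8, 35.6 and 31.6 in control pools (log2 change 1.47, limma adjusted p = 0.0122). Both Tln2 and Itgb1bp2 are muscle genes and rose in the pools in which cardiomyocyte markers were higher; the part of cardiomyocyte RNA in these values was not tested.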

How the data were processed

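Poly(A) RNA of 6 pools was sequenced from 40 ng of total RNA each. Per the submitters' processing notes, cutadapt and RSEM 1.3.1 were used with build GRCm38; they name no annotation release, normalization or gene filter. The authors deposited a normalised signal per gene, not logged. Each of the 87294 values, multiplied by its library size after TMM scaling, gave whole reads (offset 0.5, tolerance 0.01 reads), on which edgeR called 2956 genes and DESeq2 3621. The test was limma 3.58.1 (R 4.3.3, variance trend, two-sided) on log2(value + 1), which understates changes of low genes, for genes at 1 or more in at least 3 pools, with Benjamini-Hochberg adjustment over all 14549 genes and a threshold of 0.05. All 14549 genes, and so all 10 members, passed that filter. Alternatives were another pseudocount (0.5 or 5), filter, normalization, variance model, library weights, edgeR 4.0.16 and DESeq2 1.42.0 on recovered reads, a covariate, a block, and leaving out pools. The scripts were tested on simulated data. Single ratios and shares had exact two-sided permutation tests. Coordinates, exonic lengths and overlaps came from GENCODE M21, where 14535 of 14549 identifiers were found; the kit is not stated to keep strand.

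The members and the lists of ligands, adhesion genes and markers were chosen with earlier results of these data known. Named were Meis1 and Meis2, all members, the measured other subunits, up to 6 called genes with the smallest p per ligand or adhesion list, Fn1, Vcam1, up to 2 per marker list, and the 3 genes nearest to the members with the largest rise and fall. Prox1, Ptk2, Tln1, Tns2, Ppbp, Acta2, Tagln, Myh11 and the uncalled laminin genes in the text were named after their values were seen. Each replicate is a pool, and p-values measure the spread between pools. An item of the ligand list is counted but not reported here.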

Additional observations from a re-analysis of the deposited data

How the results depend on the processing

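Itga4 was called in all 18 alternatives (log2 change -2.56 to -1.15), Itga5 and Itga9 in 17 and Itga7 in 16, and all 4 in each of the 6 fits without 1 pool. Among the 18, the fit without a filter equals the main fit, as every gene passed the filter, so its result was fixed in advance. Counts of calls changed most with the cardiomyocyte covariate: 137 lower and 40 higher over all genes, 1 lower and 0 higher among members, 0 lower among other subunits, 1 lower and 0 higher among ligands, and 0 lower and 0 higher among adhesion genes. With the pool number as a replicate block, 780 genes were lower and 580 higher, against 1778 and 1427 without it; 1 member (Itga4), 1 other subunit, 5 ligands and 2 adhesion genes were lower, and Itga7 missed the threshold (-1.11, limma adjusted p = 0.0859). In that fit dKO 3 and control 4 share their number with no other pool and add nothing to the genotype difference. All block values therefore rest on dKO 1 and 2 and control 1 and 2, and part of the lost calls can come from that. The numbers are not stated to pair the pools, and deviations of same-numbered pools correlated at -0.18 and -0.20 across genes. Leaving out 1 pool gave 881 to 1265 higher genes (905 without dKO 2, 881 without dKO 3) and 3 to 6 lower adhesion genes (3 without control 4, dKO 2 or dKO 3). Itga2 was called higher with a filter at 5, with quantile normalization and with DESeq2 (1 other subunit each). Signs turned for members that had not passed: Itga8 with the block (0.047); Itgav (0.50), Itga6 (-0.19), Itgb1 (-0.10), Itgb3 (0.15) and Itgb5 (-0.16) with the covariate; Itgb1 without dKO 3 (-0.030, and up to 0.145 over the 6 fits without 1 pool). Meis1 turned to 0.13 without control 1 and dKO 1, to 1.001 with the covariate and to 0.045 without control 1 (lowest -0.324 without control 4). The difference in share turned for Itgb1 (-1.03 to 0.69 percentage points) and Itgb5 (-0.052 to 1.52) without 1 pool. Causes were not tested. Coding lengths of RefSeq proteins were not used here, so that alternative was not run. The lowest member rests on 94 reads in a pool.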

Other observations

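The genes whose centred log2 values over the 6 pools lay nearest to those of Itga7, the member with the largest fall, were Slc38a5, an amino acid transporter gene, at a root mean square distance of 0.13, Pdlim2, a cytoskeletal adaptor gene, at 0.17, and the chloride channel family gene Clic3 at 0.19. Slc38a5 had 32.8, 21.4 and 14.1 in dKO pools, against 41.5, 69.3 and 111 in control pools, the same order of pools within each group as Itga7, and 3 genes in all lay within 0.2. Nearest to Itga9, the member with the largest rise, were the predicted gene Gm47155 at 0.03, Hap1 at 0.08 and the potassium channel gene Kcnj12 at 0.09, and 169 genes lay within 0.2. Several of these neighbours were low. Hap1 had 0.710 to 1.56 and Kcnj12 1.08 to 2.25 in control pools, and Clic3 had 0.268 to 0.851 in dKO pools. At such levels log2(value + 1) understates changes, so these distances depend on the added 1. The summed level of the 7 alpha members per kilobase of exon was 0.320, 0.278 and 0.262 times that of Itgb1 in dKO pools, against 0.243, 0.232 and 0.260 in control pools. The groups did not overlap, with a ratio 1.17 times as high in dKO pools (exact permutation p = 0.1, the smallest possible). However, dKO 3 (0.262) lay only just above control 4 (0.260). With the length of the longest coding transcript in place of exonic length, the groups overlapped.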
